A study of Mus musculus with 12 samples.

Results

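The genes described here are 36 genes that fold, move or clear proteins in the endoplasmic reticulum (ER) or carry the unfolded protein response, measured in the liver of female mice given testosterone. They were chosen by name, as every probe set whose platform symbol is on the list, and 73 probe sets on the array carried them. One probe set stood for each gene, the one with the highest mean log2 signal, as for all 12393 genes with a symbol. Testing required a signal over the median of the array in 3 or more of the 12 mice, which 34 of the 36 genes and 7217 genes in all reached. Trib3 and Asns, under that limit, were above the median on 2 arrays each and were not tested.

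The mice were female C57BL/6, an inbred laboratory strain, and their age is not given in the sources used here. Testosterone mice received 0.9 mg of the hormone in 100 µl of sesame oil under the skin, 2 times a week for 3 weeks, and vehicle mice received the oil alone. Livers were taken when treatment ended or later, after withdrawal, an interval that the sample labels give as 12 weeks and the series' design text as 3 weeks. Each of the 4 groups, testosterone and vehicle at the end of treatment and testosterone and vehicle after withdrawal, held 3 mice with 1 Affymetrix array each. The series' title concerns changes that persist after testosterone and genes of the exocrine pancreas in female liver.

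Secretory proteins enter the ER through the Sec61 channel and are folded there by chaperones, while disulfide isomerases join their cysteines, and chains that fail to fold are passed back to the cytosol and degraded (ER-associated degradation, ERAD). When unfolded chains build up, the sensors ATF6, IRE1 and PERK start the unfolded protein response: ATF6, and IRE1 by splicing the mRNA of Xbp1, turn on chaperone and ERAD genes, and PERK slows translation and favours the factor ATF4, which turns on Ddit3 (CHOP) and amino acid genes. The hepatocyte makes most plasma proteins and has a large ER.

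Values below are linear array signals, given for mice 1, 2 and 3 of a group in that order. Log2 changes are testosterone over vehicle with the standard error of a limma fit to all 12 arrays. A gene was called higher or lower at an adjusted p under 0.05, Benjamini-Hochberg over the 7217 genes.

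Some measures of the arrays moved with treatment. For beta-actin, 3' signal over 5' signal, a ratio that rises as RNA breaks down or is copied short, averaged 2.11 ± 0.077 in mice given testosterone, against 1.52 ± 0.108 in those given oil, at the end (SD, n = 3 each; exact permutation p = 0.1, two-sided, the smallest that 3 against 3 mice allow). After withdrawal the ratio was 1.62 ± 0.179 with testosterone, against 1.77 ± 0.154 with oil (exact permutation p = 0.2). The same ratio at the end was 0.930 ± 0.025 with testosterone, against 0.763 ± 0.032 with oil, for Gapdh, and 18.8 ± 2.64 against 6.06 ± 1.35 for pyruvate carboxylase (exact permutation p = 0.1 each), and in neither did the groups overlap. After withdrawal Gapdh gave 0.844 ± 0.050 with testosterone, against 0.797 ± 0.049 with oil, and pyruvate carboxylase 11.5 ± 3.32 against 14.1 ± 4.42 (exact permutation p = 0.3 and 0.4). The 8 Kupffer cell markers summed to 2070.1 to 2625 in testosterone mice and 2999 to 4607 in vehicle mice at the end, where 5 of the 8 were called lower, and to 1767 to 1934 in testosterone mice and 1432 to 2656 in vehicle mice after withdrawal, where 0 were called by limma and 0 had an unadjusted p under 0.05. In whole liver, fewer cells of a type and less RNA per cell cannot be told apart. The 5 hepatocyte markers measured, among them Alb and Apoa1, summed to 22526 to 23429 in testosterone mice and 22372 to 24058 in vehicle mice at the end, with 0 called by limma and 1 at an unadjusted p under 0.05. After withdrawal they summed to 22374 to 26533 in testosterone mice and 20937 to 23798 in vehicle mice, with a median log2 change of 0.20, 3 of 5 at an unadjusted p under 0.05 and 1 called, Apoa1 (0.25). The 3 stellate cell markers tested, Col3a1, Reln and Dcn, were lower in every testosterone mouse than in any vehicle mouse after withdrawal (-0.52, -0.30 and -0.20), with 0 called by limma and 3 at an unadjusted p under 0.05. Pancreatic acinar enzymes, 11 genes without Cela1, which liver also expresses, summed to 506, 1229 and 64.2 in testosterone mice 1, 2 and 3 after withdrawal, and to 38.6 to 93.1 in the other 9 mice. Acinar cells carry a large ER, so results after withdrawal are also given with testosterone mouse 3 as the only one of its group.

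At the end of treatment 19 of the 34 genes were higher in testosterone mice and 0 were lower, where 9.42% of all genes tested were higher and 8.01% lower. Their median log2 change was 0.39, beside 0.04 over all genes tested. After withdrawal 14 of the 34 were higher and 0 lower, where 2.74% of all genes were higher and 3.26% lower, with a median of 0.38 beside -0.04 over all genes. In 22 of the 34 genes every testosterone mouse lay above every vehicle mouse at the end, as in 20.6% of all genes, and in 23 after withdrawal, as in 11.2% of all genes. On the probe set that stood for each gene, in 0 of the 34 did every testosterone mouse lie below, as 15.1% and 14.7% of all genes did at those times. Other probe sets did so at the end for Hsp90b1, Canx, Sec61a1 and Sel1l, while those of some other genes, such as Hspa5, lay wholly above. Higher at both times were 11 genes, namely Hspa5, Dnajb9, Dnajb11, Sdf2l1, Creld2, Manf, Calr, Pdia6, Syvn1, Derl3 and Creb3l3, while 105 of the 7217 genes were. Derl3, counted among the 19, the 14 and the 11, passed the filter only through testosterone mice. The mean of all probe sets of a gene also gave 19 calls at the end, but that of Sel1l was then lower. The vehicle and testosterone mice of each time are different animals, so the log2 changes at the end and after withdrawal share no sample. The calls are not independent, because the fit estimated each gene's spread from all arrays of both times.

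When the actin ratio was a term in the fit, 1 of the 34 genes was called at the end, Hspa5 (0.83, adjusted p = 0.0297), and 78 genes in all were called in place of 1258. The median of the 34 genes was then 0.23, with 26 above 0. With the Gapdh ratio, an alternative added after the data were seen, 0 were called at the end and the median was 0.24, with 28 above 0. Over all genes 86 were called with that ratio, in place of 1258. After withdrawal, 12 of the 34 were called with either ratio in the fit, and 7 with testosterone mouse 3 alone: Hspa5, Dnajb9, Sdf2l1, Creld2, Manf, Pdia6 and Herpud1. That fit takes the lone mouse to vary like the mice of the other groups. Over all genes 263 were called after withdrawal with the actin ratio and 490 with the Gapdh ratio, in place of 433. Without vehicle mouse 2 of the withdrawal time the count after withdrawal was 9, and 236 over all genes. Without testosterone mouse 1, testosterone mouse 2 or vehicle mouse 1 of the end, the count at the end was 12 in each case. Over all genes those fits gave 789, 824 and 835 calls.

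**Figure D1:**
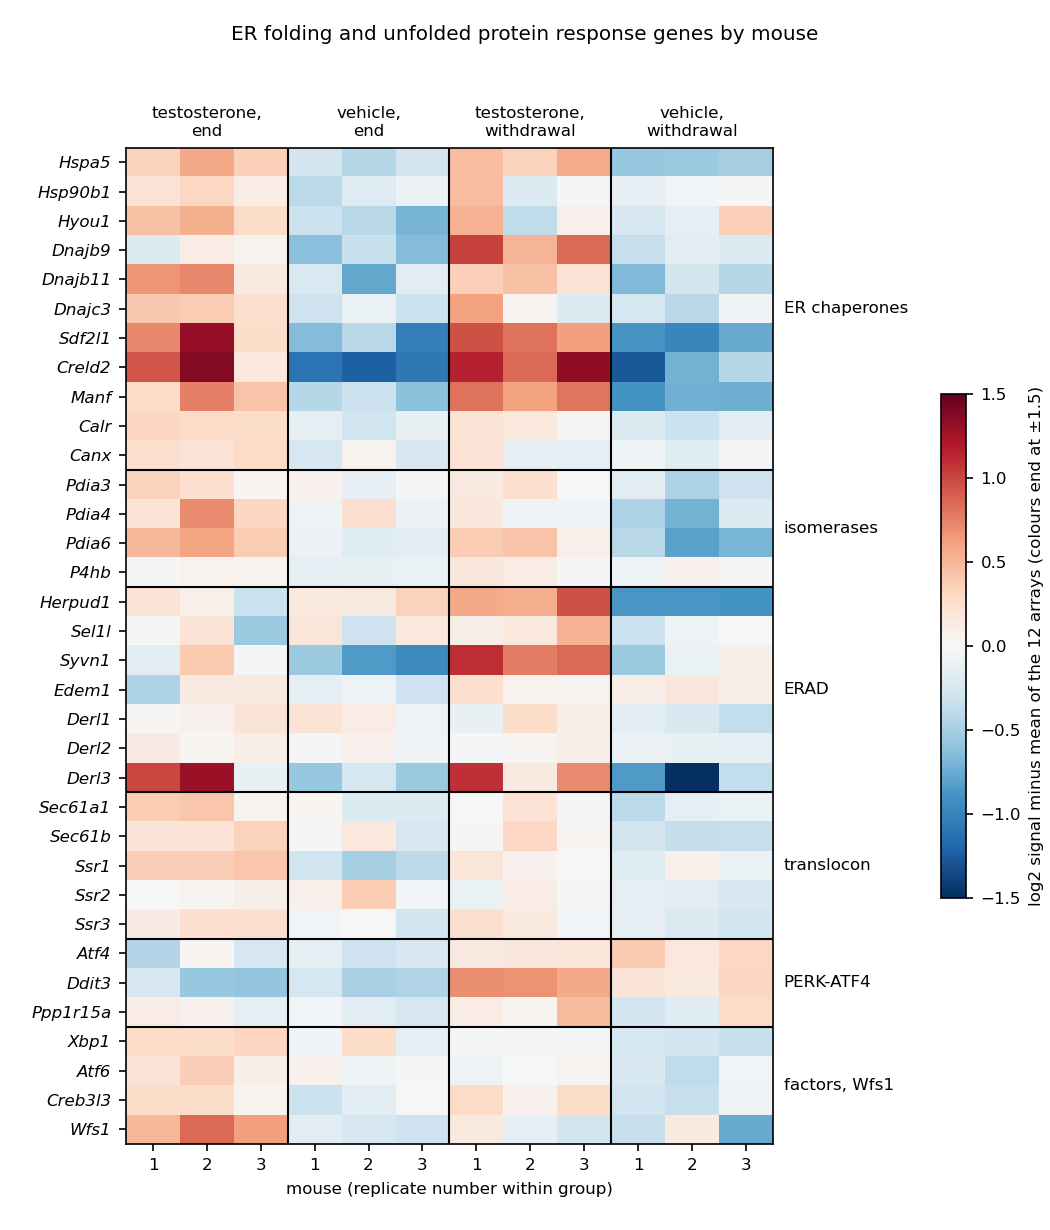
Signal of the 34 tested genes in each of the 12 mice, as log2 signal minus the gene's mean over the 12 arrays, in rows grouped by role and columns grouped by treatment and time (red above, blue below the mean, colours ending at 1.5 on either side). Most rows of the chaperone block are red in the testosterone columns and blue in the vehicle columns at both times, whereas the rows of Atf4 and Ddit3 change colour between the times.

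The promoters of these genes carry a known element, which is shown here because it was found in 10 of the 19 genes higher at the end. RefSeq promoters (GRCm38.p6, 250 bases before to 50 bases after the start) were at hand for 30 of the 36 genes and for 27025 genes in all. The ER stress element, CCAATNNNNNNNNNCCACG on either strand, was in 9 of the 30 (30.0%) and in 0.137% of all genes with a promoter. Its shorter relative, ER stress element II (ATTGGNCCACG), was in Dnajb11 and Herpud1 (6.67%) and in 0.0444% of all. No promoter of the 30 held the UPR element TGACGTGG (0.714% of all genes) or the ATF4 element TGATGNAAT (1.08%), which says only that these letters are not in these windows. The search was chosen after the results were seen. The genes were listed by name for their role, so the shares of the elements among them describe the list and are no result of the signals. The sites shown are those that lie before the start in genes higher at both times, and that of Herpud1, with the element in capitals and 12 bases on each side, as read on the gene's strand; where the element lies on the opposite strand it begins with CGTGG.
Hspa5: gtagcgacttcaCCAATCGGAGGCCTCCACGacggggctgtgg
Creld2: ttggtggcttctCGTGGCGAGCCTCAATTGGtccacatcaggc
Calr: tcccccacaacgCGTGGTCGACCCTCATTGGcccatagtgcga
Pdia6: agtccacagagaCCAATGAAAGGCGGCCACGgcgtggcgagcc
Syvn1: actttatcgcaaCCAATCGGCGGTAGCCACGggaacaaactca
Derl3: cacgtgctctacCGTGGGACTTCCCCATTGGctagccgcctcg
Herpud1: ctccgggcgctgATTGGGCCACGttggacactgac

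The Hspa5 stretch lies at chr2:34772013-34772055 on the plus strand, with the element 65 to 47 bases before the start. The others lie at chr15:88819508-88819550 (plus strand) for Creld2, chr8:84847063-84847105 (minus) for Calr, chr12:17266479-17266521 (plus) for Pdia6, chr19:6046520-6046562 (plus) for Syvn1, chr10:75893230-75893272 (plus) for Derl3 and chr8:94386365-94386399 (plus) for Herpud1. The ER stress element was also in the promoters of Canx and Dnajc3, and at 2 places in that of Hsp90b1. Of the 11 genes with either element, all tested, 10 were higher at the end and 8 after withdrawal, with median log2 changes of 0.64 and 0.93. Derl3, which passed the filter only through testosterone mice, is among them at both times. Of the 17 tested genes whose promoters held neither, 6 were higher at the end and 5 after withdrawal, with medians of 0.27 and 0.32. The genes with either element are mostly chaperones, and all 11 chaperones were called at the end, so the sets also differ in role. The difference between these sets of genes was not tested. Among the 6 genes higher at the end without either element were Sdf2l1 and Dnajb9.

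On the probe set that stood for each gene, the 11 ER chaperones and cofactors were called higher in testosterone livers at the end of treatment, and 7 of them after withdrawal. At the end the direction of 2 of the 11 turned with the choice of probe set. Hsp90b1 was at -0.029 with the mean of its probe sets, and Canx at -0.23 without probe sets whose names end in _s_at or _x_at. The median log2 change of the 11 was 0.75 at the end and 0.79 after withdrawal. With testosterone mouse 3 alone in its group, 5 were called after withdrawal, and the median was 0.66. Fitting the actin ratio gave a median at the end of 0.46, with 8 of 11 above 0 and Hspa5 called. Hsp90b1 (-0.04), Dnajc3 (-0.11) and Canx (-0.00995) then lay below 0.

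Hspa5 (BiP) binds unfolded chains in the ER and, when chains are few, keeps the sensors inactive. At the end of treatment it read 2722, 3215 and 2769 in testosterone mice, against 1789, 1606 and 1768 in vehicle mice. After withdrawal Hspa5 read 2994, 2753 and 3198 in testosterone mice, against 1461, 1467 and 1531 in vehicle mice. Every testosterone mouse lay above every vehicle mouse at both times, with log2 changes of 0.75 ± 0.08 (adjusted p = 2.46e-05) and 1.00 ± 0.08 (adjusted p = 1.17e-06), or 1.68-fold and 2.00-fold. A second probe set of the gene gave 0.84 and 0.99.

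Creld2, an ER protein that is secreted under stress, changed most among the 34 genes at both times. It read 389, 528 and 227 in testosterone mice at the end, against 94.6, 87.1 and 96.6 in vehicle mice. After withdrawal the signals were 452, 367 and 512 in testosterone mice, against 84.1, 124 and 151 in vehicle mice. The groups were apart at both times, and the lowest testosterone mouse, mouse 3 of the end, still read above the highest vehicle mouse. The log2 changes were 1.96 ± 0.25 (adjusted p = 0.000121) and 1.92 ± 0.25 (adjusted p = 0.00021), or 3.88-fold and 3.77-fold.

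Sdf2l1, a partner of the cochaperone Dnajb11, read 101, 152 and 73.7 in testosterone mice at the end, against 39.1, 45.8 and 30.1 in vehicle mice. After withdrawal Sdf2l1 read 119, 108 and 93.9 in testosterone mice, against 33.2, 31.1 and 36.1 in vehicle mice. It rose by 1.46 ± 0.22 at the end (adjusted p = 0.000401) and 1.67 ± 0.22 after withdrawal (adjusted p = 0.00019), with no overlap of groups. Manf, a small protein of the ER that cells also secrete, read 1116, 1529 and 1215 in testosterone mice at the end, against 675, 721 and 588 in vehicle mice. After withdrawal Manf read 1587, 1378 and 1577 in testosterone mice, against 486, 549 and 546 in vehicle mice. Its log2 changes were 0.95 ± 0.12 (adjusted p = 8.09e-05) and 1.52 ± 0.12 (adjusted p = 7.55e-07), and the groups did not overlap at either time. The difference between the times, 0.57 ± 0.16 for Manf, was not called (adjusted p = 0.0757).

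The DnaJ cochaperones of Hspa5 were all higher at the end, and Dnajb9 and Dnajb11 also after withdrawal. Dnajb9 (ERdj4), which helps hold the sensor IRE1 inactive, read 472, 587 and 562 in testosterone mice at the end, against 351, 430.2 and 345 in vehicle mice. After withdrawal Dnajb9 read 1101, 771 and 981 in testosterone mice, against 427, 483 and 466 in vehicle mice. The changes of Dnajb9 were 0.53 ± 0.13 (adjusted p = 0.0134) and 1.04 ± 0.13 (adjusted p = 0.000144), with every testosterone mouse above every vehicle mouse. Dnajb11 (ERdj3), which brings chains to Hspa5, read 274, 287 and 191 in testosterone mice at the end, against 148, 102 and 155 in vehicle mice. After withdrawal Dnajb11 read 222, 235 and 201 in testosterone mice, against 110.1, 143 and 129 in vehicle mice. Its changes were 0.89 ± 0.18 (adjusted p = 0.00357) and 0.79 ± 0.18 (adjusted p = 0.0143), again with no overlap.

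Dnajc3 (p58IPK) is a cochaperone that also restrains PERK. It read 588, 579 and 524 in testosterone mice at the end, against 357, 415 and 355 in vehicle mice. After withdrawal the groups overlapped, at 674, 458 and 385 in testosterone mice, against 369, 333 and 426 in vehicle mice. The change was called at the end (0.59 ± 0.16, adjusted p = 0.0214) and not after withdrawal (0.39 ± 0.16, adjusted p = 0.171). Its 4 other probe sets gave 0.11, 0.38, 0.26 and 1.49 at the end and 0.50, 0.56, 0.64 and 0.38 after withdrawal, where the groups of the first 3 did not overlap. Dnajc3 was called after withdrawal with the actin ratio in the fit (0.59, adjusted p = 0.0338) and with the mean of its probe sets. Hyou1 (GRP170), which helps Hspa5 release its nucleotide, read 193, 205 and 172 in testosterone mice at the end, against 114, 106 and 87.8 in vehicle mice. After withdrawal Hyou1 read 204, 109 and 148 in testosterone mice, against 119.9, 128 and 182 in vehicle mice, with overlap. A second probe set of Hyou1 gave 0.80 at the end and 0.56 after withdrawal. Hyou1 was higher at the end (0.89 ± 0.20, adjusted p = 0.00774) and not called later (0.08 ± 0.20, adjusted p = 0.856). The difference between the times, -0.82 ± 0.28, was not called (adjusted p = 0.117).

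Hsp90b1 (GRP94), the HSP90 of the ER, read 1493, 1598 and 1386 in testosterone mice at the end, against 969.5, 1123 and 1209 in vehicle mice. After withdrawal its groups overlapped, at 1771, 1117 and 1263 in testosterone mice, against 1181, 1245 and 1264 in vehicle mice. The change was 0.44 ± 0.13 at the end (adjusted p = 0.0335) and 0.14 ± 0.13 after withdrawal (adjusted p = 0.578). Its other probe set gave -0.50 at the end and 0.70 after withdrawal, so the array does not settle the direction of this gene at the end.

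Calr and Canx, calreticulin and calnexin, are the lectins that hold sugar-bearing chains while they fold. Calr read 1703, 1664 and 1640.4 in testosterone mice at the end, against 1224, 1107 and 1258 in vehicle mice. After withdrawal Calr read 1566, 1518 and 1377 in testosterone mice, against 1168, 1089 and 1213 in vehicle mice. Calr rose by 0.48 ± 0.08 (adjusted p = 0.000754) and 0.36 ± 0.08 (adjusted p = 0.0112), with no overlap, and its other probe sets gave 0.42 and 0.60 at the end. Canx read 1149, 1108 and 1169.8 in testosterone mice at the end, against 803, 991 and 814 in vehicle mice. After withdrawal Canx overlapped, at 1117, 875 and 875 in testosterone mice, against 917, 843 and 940.1 in vehicle mice. The change of Canx was 0.40 ± 0.11 at the end (adjusted p = 0.0182) and 0.08 ± 0.11 after withdrawal (adjusted p = 0.709), and its other probe sets gave -0.23 and 0.57 at the end. After withdrawal the set with -0.23 read 315, 379 and 347 in testosterone mice, against 322, 205 and 223 in vehicle mice. Without probe sets whose names end in _s_at or _x_at, Canx was called higher after withdrawal. The array thus does not settle at which time Canx changed.

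The calls of 8 of the 19 genes at the end were lost when a single mouse was left out, 4 of them chaperones. Hsp90b1 lost its call in 4 of 12 such fits (log2 0.35 to 0.46 there), Dnajc3 in 4 (0.55 to 0.57), Canx in 4 (0.35 to 0.40) and Dnajb9 in 2 (0.47 and 0.48). The others were Derl3, lost in 4 fits (0.91 to 1.15), Sec61a1 in 4 (0.34 to 0.37), Ssr3 in 5 (0.22 to 0.36) and Creb3l3 in 4 (0.27 to 0.36). After withdrawal 6 of the 14 calls were lost in this way: Dnajb11 in 2 fits (0.69 and 0.74), Calr without vehicle mouse 2 (0.32), Pdia3 in 3 (0.36 to 0.45), Derl3 in 3 (1.26 to 1.52), Sec61b in 3 (0.35 to 0.44) and Creb3l3 in 4 (0.40 to 0.43). The mice concerned were all of the group pair compared, and the direction was kept in every such fit.

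**Figure D2:**
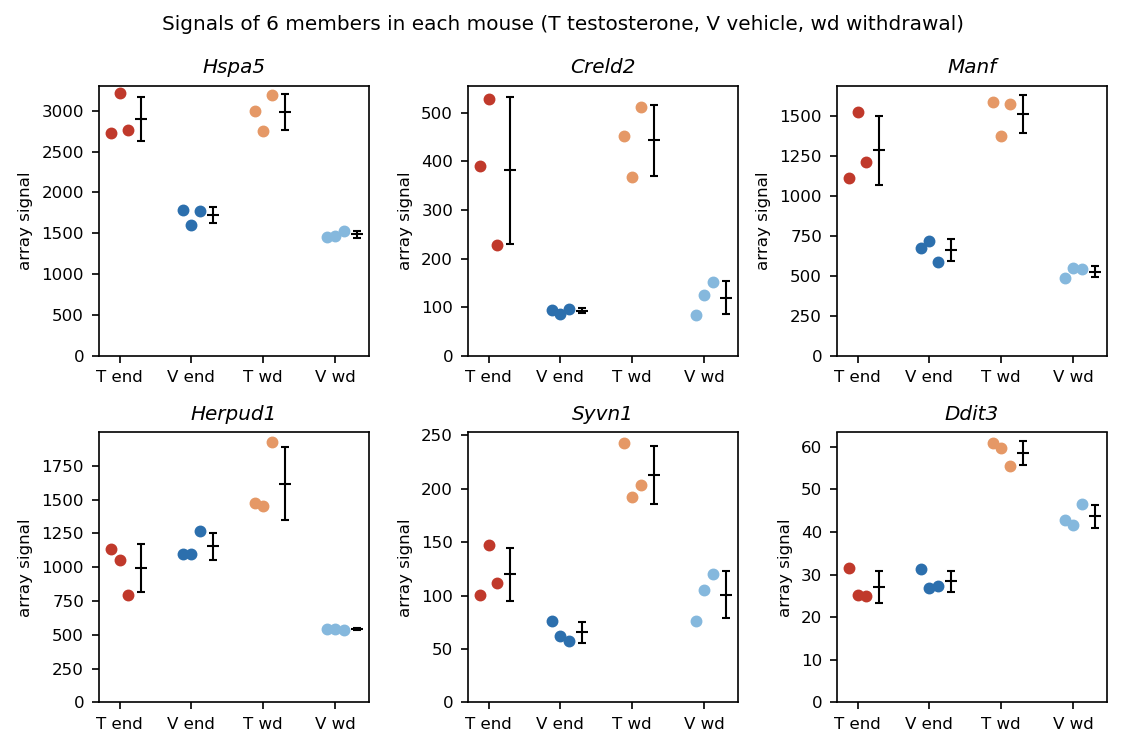
Array signal, on linear axes from 0, of Hspa5, Creld2, Manf, Herpud1, Syvn1 and Ddit3 in each mouse (points), with the mean and SD of each group of 3 mice beside them (T testosterone, V vehicle, wd after withdrawal). Testosterone mice lie above vehicle mice at both times for Hspa5, Creld2, Manf and Syvn1, and after withdrawal alone for Herpud1, where vehicle mice read 536 to 545.

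Of the 4 disulfide isomerases, 1 was higher at the end and 2 after withdrawal. Pdia6, which also helps switch off IRE1, read 749, 804 and 696 in testosterone mice at the end, against 500.4, 470.3 and 474 in vehicle mice. After withdrawal Pdia6 read 695, 716 and 561 in testosterone mice, against 401, 306 and 330.4 in vehicle mice. It rose by 0.64 ± 0.12 (adjusted p = 0.00182) and 0.93 ± 0.12 (adjusted p = 0.000113), with no overlap at either time. Pdia3 (ERp57), which works with calreticulin and calnexin, read 1093, 1028 and 877 in testosterone mice at the end, against 898, 788 and 853 in vehicle mice. After withdrawal Pdia3 read 948, 1026 and 859 in testosterone mice, against 773, 618 and 697 in vehicle mice. The groups overlapped at the end (0.24 ± 0.11, adjusted p = 0.143) and were apart after withdrawal (0.44 ± 0.11, adjusted p = 0.0217).

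Pdia4 (ERp72) read 126, 178 and 137 in testosterone mice at the end, against 103, 129.8 and 103 in vehicle mice. After withdrawal Pdia4 read 123, 104 and 105 in testosterone mice, against 79.1, 66.6 and 94.7 in vehicle mice. Its changes, 0.38 ± 0.16 (adjusted p = 0.111) and 0.48 ± 0.16 (adjusted p = 0.0939), were not called. P4hb, the classic protein disulfide isomerase, read 2294, 2415 and 2378 in testosterone mice at the end, against 2118, 2141 and 2169 in vehicle mice. After withdrawal P4hb read 2612, 2515 and 2298 in testosterone mice, against 2203, 2419.7 and 2355 in vehicle mice. Although the groups were apart at the end, the changes of P4hb, 0.14 ± 0.07 (adjusted p = 0.162) and 0.09 ± 0.07 (adjusted p = 0.482), were not called.

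Of the 7 ERAD genes, 2 were higher at the end and 3 after withdrawal, with medians of 0.09 and 0.39. Syvn1 (HRD1), the ubiquitin ligase of the pathway, read 100.4, 148 and 112 in testosterone mice at the end, against 76.4, 62.5 and 57.9 in vehicle mice. After withdrawal Syvn1 read 243, 192 and 204 in testosterone mice, against 76.6, 105 and 119.9 in vehicle mice. The changes of Syvn1 were 0.86 ± 0.18 (adjusted p = 0.00506) and 1.10 ± 0.18 (adjusted p = 0.00149), and the groups did not overlap. With testosterone mouse 3 alone in its group, the later change was 1.04 (adjusted p = 0.0507). Derl3, a derlin of the export channel, read 56.3, 68.9 and 26 in testosterone mice at the end, against 18.9, 23.3 and 19.2 in vehicle mice. After withdrawal Derl3 read 60.2, 30.8 and 45.9 in testosterone mice, against 15.6, 9.86 and 21.7 in vehicle mice. It was higher at both times (1.19 ± 0.35, adjusted p = 0.0311, and 1.56 ± 0.35, adjusted p = 0.0153), with mouse 3 the lowest testosterone mouse at the end and mouse 2 the lowest after withdrawal. Derl3 was above the array median on 7 arrays, those of all testosterone mice and of vehicle mouse 2 of the end. It therefore passed the filter only through the mice in which it was high. Derl3 is also on the list of plasma cell markers. The 2 others of that list that were tested had negative values, -0.43 for Jchain and -0.88 for Ighm at the end, neither called, and -0.76 for Jchain, not called, and -1.33 for Ighm, called lower, after withdrawal. The 5 markers on the array, Derl3 included, summed to 87.2 to 122 in testosterone mice and 110.3 to 121 in vehicle mice at the end, and to 102 to 172 in testosterone mice and 151 to 353 in vehicle mice after withdrawal. Tnfrsf17 and Pou2af1 lay under the filter. The part of these cells in the result for Derl3 was not tested.

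Herpud1, a membrane protein that gathers ERAD complexes, was the one gene of the 34 called higher for the difference between the times. At the end it read 1136, 1051 and 797 in testosterone mice, against 1099, 1095 and 1269 in vehicle mice, which overlapped. After withdrawal Herpud1 read 1474, 1450.3 and 1927 in testosterone mice, against 545, 544 and 536 in vehicle mice, far apart. The change was -0.23 ± 0.13 at the end (adjusted p = 0.246) and 1.56 ± 0.13 after withdrawal (adjusted p = 1.49e-06), or 2.96-fold. The difference between the times, 1.79 ± 0.18, was itself called (adjusted p = 0.000105). Between the times Herpud1 was lower in vehicle mice after withdrawal than at the end (-1.09 ± 0.13, adjusted p = 0.000107) and higher in testosterone mice (0.70 ± 0.13, adjusted p = 0.0031). Its second probe set gave -0.04 at the end and 1.51 after withdrawal. With the actin ratio as a term the difference was 1.29 and not called (adjusted p = 0.473).

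On the probe set that stood for each gene, the other 4 ERAD genes were not called for testosterone at either time. The log2 values at the end and after withdrawal were -0.14 and 0.39 for Sel1l, the adaptor of Syvn1. For Edem1, which picks chains with trimmed sugars, they were 0.11 and -0.01, for the derlin Derl1 0.01 and 0.35, and for Derl2 0.09 and 0.14. A second probe set of Derl2 was apart at both times. It read 166, 153 and 202 in testosterone mice at the end, against 148, 122 and 120 in vehicle mice. After withdrawal that set read 179, 170 and 174 in testosterone mice, against 122, 123 and 139 in vehicle mice. Derl1 read 279, 288 and 314 in testosterone mice at the end, against 317, 297 and 261 in vehicle mice. After withdrawal Derl1 read 255, 332 and 294 in testosterone mice, against 244, 232 and 213 in vehicle mice, so that the groups were apart at the later time (0.35 ± 0.11, adjusted p = 0.0874). Probe sets disagreed for Sel1l and Derl1: a further set of Sel1l gave -1.53 at the end and a further set of Derl1 gave 1.41. With the mean of all probe sets, Sel1l was called lower and Derl1 higher at the end. After withdrawal the Sel1l set with -1.53 overlapped between the groups. Another Sel1l set then read 212, 193 and 240 in testosterone mice, against 129, 152 and 151 in vehicle mice. The remaining Sel1l set read 95.7, 122 and 165 in testosterone mice, against 82.2, 71.2 and 79.3 in vehicle mice.

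Of the 5 translocon genes, 3 were higher at the end and 1 after withdrawal. Ssr1, a subunit of the TRAP complex that helps chains into the channel, read 513, 515 and 529 in testosterone mice at the end, against 322, 282 and 303 in vehicle mice. After withdrawal Ssr1 read 449, 415 and 396 in testosterone mice, against 349.9, 419 and 371 in vehicle mice. The groups were apart at the end (0.78 ± 0.09, adjusted p = 7.6e-05) and overlapped later (0.15 ± 0.09, adjusted p = 0.399). The difference between the times, -0.64 ± 0.13, was called (adjusted p = 0.028), but the call was lost in 8 of 12 fits that left out 1 mouse, at -0.65 to -0.56, without each of the testosterone mice of the end, vehicle mouse 2 of the end, testosterone mice 2 and 3 of the withdrawal time, or vehicle mice 2 and 3 of that time. The other probe sets of Ssr1 gave 0.14 and 0.67 at the end.

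Ssr3, another TRAP subunit, read 895, 976 and 972 in testosterone mice at the end, against 802, 821 and 667 in vehicle mice. After withdrawal Ssr3 read 967, 907 and 800.3 in testosterone mice, against 756, 709.7 and 675 in vehicle mice. Its change was about equal at both times and called at the end (0.32 ± 0.10, adjusted p = 0.0372, and 0.32 ± 0.10, adjusted p = 0.0702). Sec61a1, the channel itself, read 654, 669.8 and 516 in testosterone mice at the end, against 513, 435 and 436 in vehicle mice. After withdrawal Sec61a1 read 504, 585 and 492 in testosterone mice, against 383, 459 and 468 in vehicle mice. It was called at the end (0.40 ± 0.12, adjusted p = 0.0326) and not later (0.27 ± 0.12, adjusted p = 0.216), and 4 of its other probe sets lay below 0 at the end, down to -0.68.

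Sec61b, the small subunit of the channel, read 731, 735 and 810.4 in testosterone mice at the end, against 622, 709.6 and 536 in vehicle mice. After withdrawal Sec61b read 647, 789.9 and 651 in testosterone mice, against 526, 496 and 502 in vehicle mice. The groups of Sec61b were apart at both times, and the change was called after withdrawal (0.45 ± 0.11, adjusted p = 0.0217) and not at the end (0.29 ± 0.11, adjusted p = 0.0746). Ssr2 was not called (-0.10 and 0.18).

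**Figure D3:**
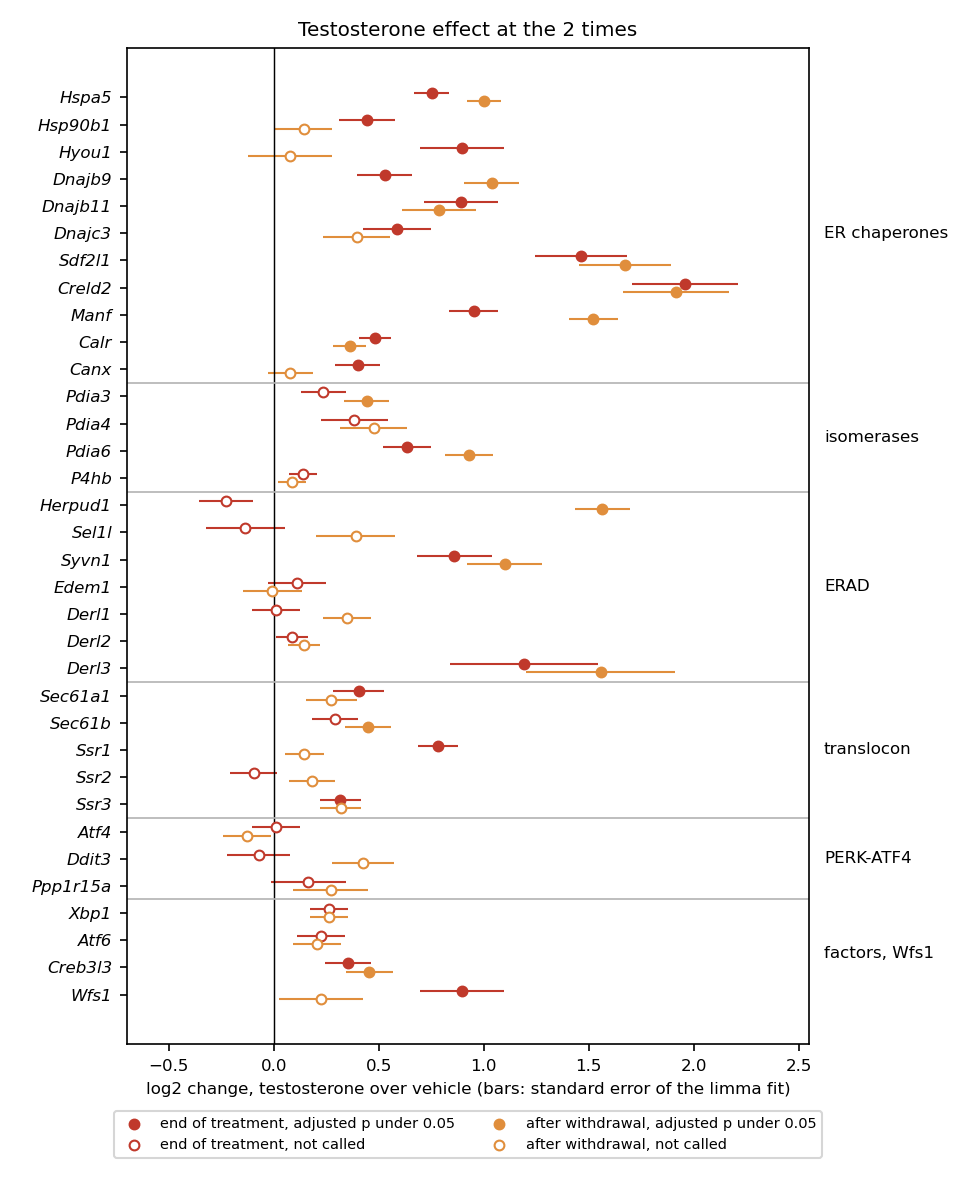
Log2 change, testosterone over vehicle, of the 34 tested genes at the end of treatment (red) and after withdrawal (orange), with bars for the standard error of the limma fit, filled where the adjusted p was under 0.05, and grouped by role. Creld2 lies farthest to the right at both times (1.96 and 1.92), Herpud1 is the gene whose points lie farthest apart, and the 3 genes of the PERK-ATF4 branch have open points at both times.

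In the PERK-ATF4 branch 0 of 3 tested genes were called for testosterone by limma at either time. Of all genes 9.42% were higher and 8.01% lower at the end, and 2.74% and 3.26% after withdrawal. With 3 genes, 0 calls does not set the branch apart from all genes. At an unadjusted p under 0.05 were 0 at the end, where 32% of all genes were, and 1 after withdrawal, where 20.6% were. Atf4 read 249, 346 and 285 in testosterone mice at the end, against 307, 272 and 287 in vehicle mice. After withdrawal Atf4 read 372, 380.4 and 385 in testosterone mice, against 445, 378 and 420.2 in vehicle mice. The groups overlapped at both times (0.01 ± 0.11 and -0.13 ± 0.11), although a further probe set of Atf4 gave 0.99 at the end. Ddit3 (CHOP), the factor tied to cell death under stress, read 31.4, 25.1 and 24.9 in testosterone mice at the end, against 31.3, 26.7 and 27.3 in vehicle mice. After withdrawal Ddit3 read 60.8, 59.6 and 55.4 in testosterone mice, against 42.8, 41.5 and 46.7 in vehicle mice. Every testosterone mouse then lay above every vehicle mouse, but the change was not called (0.43 ± 0.15, adjusted p = 0.109).

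The remaining genes of that branch were dim. Ppp1r15a (GADD34), which lets translation resume, ranged from 32.2 to 54.5 on the 12 arrays, with log2 values of 0.17 and 0.27 that were not called. Trib3, a target of Ddit3, ranged from 10.01 to 27.9, and Asns, the asparagine synthetase turned on by Atf4, from 5.56 to 24.7. For Asns after withdrawal the signals were 15.8, 20.4 and 14.8 in testosterone mice, against 8.63, 6.21 and 11.9 in vehicle mice, which did not overlap, at levels under the filter.

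Of the further factors and Wfs1, 2 of 4 genes were higher at the end and 1 after withdrawal. Creb3l3 (CREBH), a liver factor held in the ER membrane like ATF6, read 734, 735 and 625 in testosterone mice at the end, against 486, 546 and 609 in vehicle mice. After withdrawal Creb3l3 read 751, 636 and 736 in testosterone mice, against 496, 478 and 576 in vehicle mice. It was higher at both times, with no overlap (0.35 ± 0.11, adjusted p = 0.0395, and 0.45 ± 0.11, adjusted p = 0.0228). Xbp1 read 1785, 1769.8 and 1829 in testosterone mice at the end, against 1409, 1776 and 1331 in vehicle mice. After withdrawal Xbp1 read 1433, 1432 and 1435 in testosterone mice, against 1214, 1212 and 1159 in vehicle mice, apart at that time. On this probe set its changes of 0.27 ± 0.09 (adjusted p = 0.0564) and 0.26 ± 0.09 (adjusted p = 0.104) were not called. A dimmer set read 52.7, 53.1 and 50.6 in testosterone mice at the end, against 32.8, 31.7 and 41 in vehicle mice. Its groups overlapped after withdrawal, while the other sets of Xbp1 overlapped at the end and were apart after withdrawal. Xbp1 was called higher at the end with the mean of its probe sets. It was called after withdrawal without sets whose names end in _s_at or _x_at. With array weights it was called at both times. Splicing of its mRNA was not analysed here.

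Wfs1, a membrane protein of the ER that limits signalling by ATF6, read 62, 79.2 and 67.4 in testosterone mice at the end, against 39.2, 37 and 35.4 in vehicle mice. After withdrawal Wfs1 read 48.5, 39.7 and 36.3 in testosterone mice, against 34.5, 48.7 and 25.9 in vehicle mice. Wfs1 was higher at the end, with no overlap (0.90 ± 0.20, adjusted p = 0.00771), and not called after withdrawal (0.23 ± 0.20, adjusted p = 0.556). Atf6 was not called (0.22 and 0.21).

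The difference of the testosterone effect between the times was called for 2 of the 34 genes, higher after withdrawal for Herpud1 and lower for Ssr1, where 0.79% of all genes tested were called higher and 1.4% lower. For the 8 genes called at the end alone (Canx, Dnajc3, Hsp90b1, Hyou1, Sec61a1, Ssr1, Ssr3 and Wfs1) and the 3 called after withdrawal alone (Herpud1, Pdia3 and Sec61b), the difference was therefore called for Ssr1 and Herpud1, and the others are not shown to differ between the times.

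Between the times, vehicle mice had 4 of the 34 genes higher and 5 lower after withdrawal than at the end, where 11% of all genes were higher and 6.83% lower. Median centring of the arrays gave 3 higher and 9 lower, and 475 higher and 710 lower over all genes in place of 795 and 493. Higher were Atf4 (0.52 ± 0.11), Ddit3 (0.62 ± 0.15), Syvn1 (0.60 ± 0.18) and Ssr1 (0.33 ± 0.09), and lower were Herpud1, Pdia4 (-0.49 ± 0.16), Pdia6 (-0.49 ± 0.12), Derl1 (-0.35 ± 0.11) and Xbp1 (-0.32 ± 0.09). Calls kept in all 12 fits that left out 1 mouse were those of Herpud1 and Atf4. The call of Pdia6 was lost without vehicle mouse 2 of the withdrawal time (-0.40) and that of Ddit3 without vehicle mouse 3 of that time (0.57). The count was 4, 3 and 4 in place of 9 without vehicle mouse 2 of the end, vehicle mouse 2 of the withdrawal time or vehicle mouse 3 of that time.

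In testosterone mice 5 genes were higher and 3 lower after withdrawal than at the end, where 5.57% and 5.31% of all genes were. Median centring gave 4 and 2, and 292 higher and 453 lower over all genes in place of 402 and 383. Higher were Ddit3 (1.12 ± 0.15), Syvn1 (0.84 ± 0.18), Dnajb9 (0.81 ± 0.13), Herpud1 and Atf4 (0.38 ± 0.11), and lower were Wfs1 (-0.75 ± 0.20), Xbp1 (-0.32 ± 0.09) and Ssr1 (-0.31 ± 0.09). The first 4 kept their call in all 12 fits that left out 1 mouse, and Atf4 lost it in 9, at 0.27 to 0.40. The count was 5 in place of 8 without testosterone mouse 1 or 2 of the end, and 4 without testosterone mouse 3 of the end or testosterone mouse 2 or 3 of the withdrawal time. Ssr1 lost its call in 8 and Xbp1 in 6. Under median centring Atf4 and Xbp1 were not called in testosterone mice, nor Ssr1 in vehicle mice. Ddit3 and Syvn1 were called higher at the later time under both treatments, also with median centring.

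The spread between mice of a group was as follows. The median SD of log2 signal within a group at the end was, over the 34 genes, 0.14 with testosterone and 0.14 with vehicle, beside 0.14 and 0.17 over all genes tested. After withdrawal it was 0.14 with testosterone and 0.11 with vehicle, beside 0.16 and 0.14 over all genes. Derl3 varied most in 3 of the groups, with an SD of up to 0.74. At the end testosterone mouse 2 had the highest signal of its group for 20 of the 34 genes, and mouse 3 the lowest for 17. After withdrawal testosterone mouse 1 was highest for 18. The median of the 11 chaperones, as log2 signal minus each gene's mean over the 12 arrays, was 0.33, 0.53 and 0.27 in testosterone mice and -0.32, -0.33 and -0.32 in vehicle mice at the end. After withdrawal it was 0.52, 0.35 and 0.21 in testosterone mice and -0.34, -0.32 and -0.22 in vehicle mice.

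**Figure D4:**
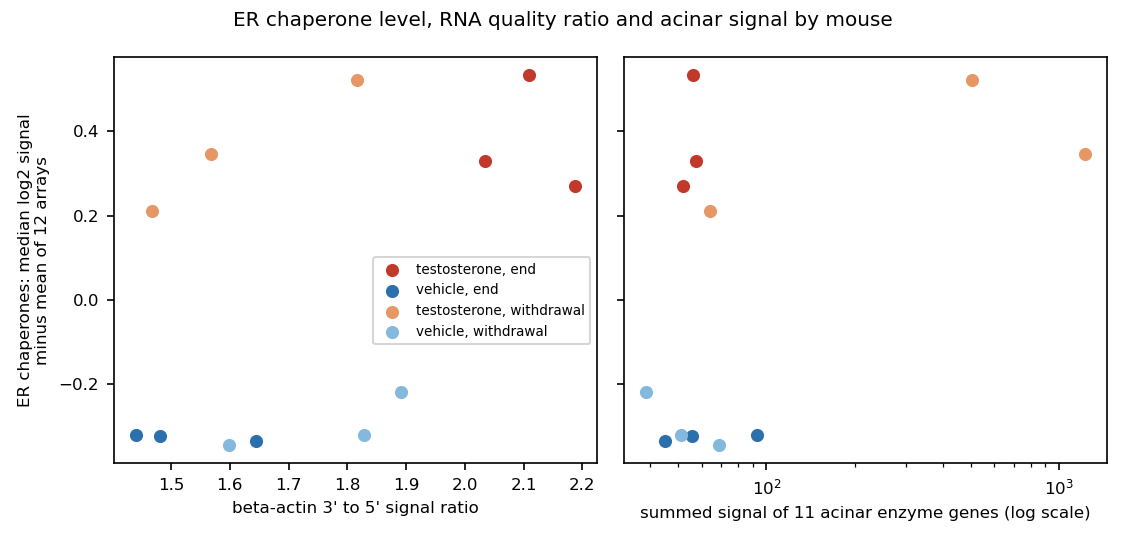
Median of the 11 ER chaperones in each mouse (log2 signal minus the mean over 12 arrays) against the beta-actin 3' to 5' ratio (left) and against the summed signal of 11 acinar enzyme genes on a log axis (right). Testosterone mice lie between 0.21 and 0.53 and vehicle mice between -0.34 and -0.22 over both times, while the actin ratio separates the treatments at the end alone, and acinar signal is high in testosterone mice 1 and 2 after withdrawal, not in mouse 3.

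Testosterone mouse 3 after withdrawal, with an acinar sum of 64.2, read 3198 for Hspa5, 512 for Creld2 and 1927 for Herpud1, the highest values of its group, although its chaperone median of 0.21 was the lowest of the 3. Over the 34 genes that mouse was the highest of its group for 9 and the lowest for 13. The acinar genes Cpb1 and Cpa1 were at 0.882 and 0.472 in it, both under the floor of 4.84. The part of acinar RNA in the results after withdrawal was not tested beyond the fit with that mouse alone. The actin ratio did not overlap between the treatments at the end, so the 2 cannot be told apart there. The fit with that ratio takes its slope to be the same in all groups. The part of the Kupffer markers was not tested.

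Other genes of the same pathways, on lists beyond the 36 and chosen with earlier results known, were also counted. The shares of all genes called, 9.42% higher and 8.01% lower at the end and 2.74% higher and 3.26% lower after withdrawal, hold for each list. Of the sensors, 0 of 3 tested were called at the end and 1 after withdrawal: Eif2ak3, which encodes PERK, read 70.9, 77 and 87.3 in testosterone mice after withdrawal, against 38.7, 53.1 and 43.5 in vehicle mice (0.81 ± 0.16, adjusted p = 0.00698). At the end Eif2ak3 read 40.6, 56.7 and 41.8 in testosterone mice, against 42.8, 40.6 and 44 in vehicle mice (0.11). Ern1, which encodes IRE1, lay under the filter.

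Of 31 other folding enzymes and cofactors, 7 were higher and 1 lower at the end, and 4 higher and 0 lower after withdrawal, with medians of 0.11 and 0.06. The prolyl isomerase Fkbp11 rose by 0.99 ± 0.23 at the end and 1.08 ± 0.23 after withdrawal, and the oxidase Ero1b, which recharges the isomerases, by 0.65 ± 0.13 and 1.19 ± 0.13. Ero1b read 385, 401 and 431 in testosterone mice after withdrawal, against 179, 170.2 and 186 in vehicle mice. The glucosidase Mogs rose at the end (0.62 ± 0.14) and the oxidase Qsox1 fell (-0.56 ± 0.14). Txndc11 (0.74 ± 0.17) and the prolyl isomerase Ppib (0.48 ± 0.11) were higher after withdrawal.

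Of 25 other ERAD genes, 6 were higher and 0 lower at the end, and 1 higher after withdrawal, where 9.42% and 2.74% of all genes were higher, with medians of 0.13 and 0.05. At the end the largest were Ubxn4, an adaptor of the extraction ATPase (0.93 ± 0.11), Vcp, that ATPase (0.56 ± 0.11), the mannosidase Edem3 (0.45 ± 0.11) and the conjugating enzyme Ube2j1 (0.44 ± 0.12), and after withdrawal Edem3 was called (0.46 ± 0.11). Of 29 other genes of translocation, signal peptide removal and sugar transfer, 9 were higher at the end and 4 after withdrawal, with 0 lower and medians of 0.21 and 0.28. Stt3a, the catalytic subunit that transfers sugar chains (1.00 ± 0.16), the signal recognition subunit Srp68 (0.63 ± 0.12), the transferase subunit Rpn1 (0.62 ± 0.09) and the signal peptidase subunit Sec11c (0.50 ± 0.11) led at the end. After withdrawal these were the TRAP subunit Ssr4 (0.54 ± 0.15), the receptor subunit Srpr (0.47 ± 0.11), Rpn1 (0.33 ± 0.09) and Srp9 (0.32 ± 0.09).

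Of 27 other targets of ATF4 and CHOP, 7 were higher and 1 lower at the end, where 9.42% of all genes were higher and 8.01% lower. After withdrawal 0 were called by limma and 2 had an unadjusted p under 0.05, as 20.6% of all genes did. Chac1, a glutathione-degrading enzyme, read 41.1, 44.4 and 48.2 in testosterone mice at the end, against 22.6, 14.6 and 17.2 in vehicle mice (1.32 ± 0.26, adjusted p = 0.00367). After withdrawal Chac1 read 9.48, 12.3 and 16 in testosterone mice, against 10.4, 16 and 11.4 in vehicle mice. Outside the testosterone mice of the end, vehicle mouse 1 of the end alone read above the highest array median. Chac1, counted among the 7, therefore passed the filter only through the mice in which it was high. The factor Cebpb (0.71 ± 0.12), Ppp1r15b, which keeps translation going in unstressed cells (0.54 ± 0.12), and the asparagine tRNA ligase Nars1 (0.49 ± 0.09) also rose at the end, and Cth, an enzyme of cysteine synthesis, fell (-0.39 ± 0.12). Of 40 genes of transport between the ER and the Golgi, 11 were higher and 1 lower at the end, and 8 higher and 0 lower after withdrawal, with medians of 0.16 and 0.21. Arfgap3 (0.94 ± 0.26), Serp1 (0.68 ± 0.08), the coat subunit Sec23b (0.66 ± 0.12) and Bet1 (0.64 ± 0.11) led at the end, where Cope was lower (-0.35 ± 0.10). Serp1 was counted on this list although its protein belongs with the Sec61 channel. Sec23b (0.69 ± 0.12), the coat subunit Sec24d (0.64 ± 0.12) and the fusion proteins Stx5a (0.57 ± 0.11) and Sec22b (0.54 ± 0.12) led after withdrawal.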

How the data were processed

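Whole liver RNA of 12 mice was measured on 12 Affymetrix expression arrays, 1 a mouse. Per the submitters' processing notes, the deposited intensity values are MAS5 signals from GCOS; no source used here gives further settings. The deposited array values have a trimmed mean near 100.05. Medians of the arrays lay between 20.0 and 22.4, and arrays of a group correlated at 0.979 to 0.989. The number of arrays limits the precision. Intensities were raised to a floor of 4.84, the 25th percentile of all values, and log2 transformed. A model with 4 group means was fitted with limma 3.58.1 in R 4.3.3 (lmFit, eBayes with a trend), with Benjamini-Hochberg adjustment over 7217 genes. The fit was tested on simulated data. Log2 changes understate those of genes near the floor. The members and lists were chosen with earlier results of these data known. Values per mouse are given for every member called in any comparison and for the brightest member of each branch; on other lists, up to 4 called genes with the largest change in each comparison were named. The ER stress elements, the unadjusted counts, Derl1, Asns and genes outside that rule were chosen after their values were seen. Alternatives were the floor, filter, probe set rule, centring, variance model, RNA ratios, replicate block and each mouse left out.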

Additional observations from a re-analysis of the deposited data

Results flagged for a closer look

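For 7 genes of the members and pathway lists, the testosterone effect differed between the times by a limma test of the difference itself, given here as the log2 effect after withdrawal minus that at the end. The difference was 1.79 ± 0.18 (SE) for Herpud1 (adjusted p = 0.000105) and 0.74 ± 0.14 for Cope, a coat protein of Golgi vesicles (adjusted p = 0.0162). It was -0.64 ± 0.13 for Ssr1 (adjusted p = 0.028), -0.79 ± 0.17 for Cebpb (adjusted p = 0.0305) and -0.74 ± 0.16 for Ppp1r15b (adjusted p = 0.0346). For Ubxn4 it was -0.80 ± 0.15 (adjusted p = 0.0153) and for Stt3a -1.18 ± 0.23 (adjusted p = 0.0199). Over all genes tested, 158 such differences were called, against 1 with the actin ratio in the fit, 9 with the Gapdh ratio and 26 without vehicle mouse 3 of the withdrawal time. With the actin ratio neither Herpud1 nor Ssr1 was called. The 1 gene called with that ratio had a lower effect after withdrawal, so a higher one, as for Cope, was not called. For the other 5 genes the values with a ratio in the fit were not kept.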

How the results depend on the processing

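The count of 19 genes called at the end was 10 with no filter on low values, 12 when a change of 1.5-fold was also asked, 1 with the actin ratio and 0 with the Gapdh ratio in the fit (an alternative added after the data were seen, as was the one with testosterone mouse 3 alone). With the mean of probe sets it was 19, of which 16 were shared. Canx, Hsp90b1 and Sec61a1 then lost their call, Derl1 and Xbp1 were called higher, and Sel1l was called lower. The count of 14 after withdrawal was 9 with no filter and 7 with mouse 3 alone. The 2 differences between times were 1 with no filter, without a trend in the variance, with the replicate block and with the Gapdh ratio, and 0 with the actin ratio. With the mean of probe sets Ssr1 lost this call and Sel1l gained it, and Sel1l was also called between the times in testosterone mice. The 9 calls in vehicle mice between the times were 5 with no filter, without a trend and with the replicate block, 4 with only the groups compared and with the Gapdh ratio, 2 with the actin ratio and 3 at 1.5-fold. The 8 in testosterone mice were 3 with no filter, with the Gapdh ratio and with mouse 3 alone, 5 without a trend and at 1.5-fold, and 2 with the actin ratio. Leaving out 1 mouse gave 12 to 19 calls at the end, 9 to 15 after withdrawal, 1 to 4 for the difference, 3 to 9 in vehicle mice and 4 to 8 in testosterone mice. The direction turned at the end for Hsp90b1 (-0.029) and Sec61a1 (-0.19) with the mean of probe sets. With the actin ratio it turned for Hsp90b1 (-0.044), Dnajc3 (-0.11) and Canx (-0.00995), and with the Gapdh ratio for Sec61a1 (-0.10). For Canx it also turned (-0.23) without probe sets whose names end in _s_at or _x_at. Between the times it turned for Derl1 (0.054, mean of probe sets) and Canx (-0.56, without those probe sets) in vehicle mice and for Atf4 (-0.00286, mean of probe sets) in testosterone mice. The cause was not tested. Deviations from the group mean correlated at under 0.1 between mice with the same number. Such deviations, from means of 3 mice, cannot show whether the numbers pair the mice. The replicate block gave 17 calls at the end, 14 after withdrawal and 6 in testosterone mice. Over all genes, median centring gave 748 higher and 444 lower at the end in place of 680 and 578, and 265 and 167 after withdrawal in place of 198 and 235. Array weights gave 866 calls over all genes after withdrawal in place of 433. At the end the calls over all genes were 78 with the actin ratio and 86 with the Gapdh ratio, in place of 1258.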

Other observations

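Outside the 36 genes, 38 genes with a RefSeq promoter held either ER stress element, of which 10 were tested. At the end 1 of the 10 was higher (Ero1b, 0.65 ± 0.13) and 1 lower (Acnat2, an acyl transferase of bile and fatty acids, -1.67), and after withdrawal 2 were higher (Ero1b, 1.19 ± 0.13, and Rcl1, 0.50) and 1 lower (Acnat2, -0.71). The 8 tested genes not called at the end were Acacb, Alg12, Krtcap2, Lgalsl, Nucb1, Pan2, Rbm39 and Rcl1.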
